A study of Mus musculus with 2 samples.

Results

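Transcripts for pre-mRNA splicing factors were compared between bone marrow neutrophils labelled Jdp2 KO and neutrophils labelled Jdp2 WT. The genes were taken by name: Srsf, Hnrnp, Snrp, Sf3a, Sf3b, Lsm, U2af and Prpf symbols with a probe set annotated to a single gene. This gave 74 genes with 197 probe sets, out of 18193 genes and 45037 probe sets that are not controls. Some other genes of these families were not analysed here. Per the labels, all mice had the C57BL/6 /129/J mixed background, and their marrow cells had been sorted for CD11b and Ly6G with low Ly6C. Jdp2, a basic leucine-zipper protein known mainly as a repressor at AP-1 and cyclic AMP response elements, was deleted in the mice labelled Jdp2 KO and intact in those labelled Jdp2 WT, per the labels. The sources used here do not give age, sex, the deleted part of the gene or the number of mice behind each array. Each label had 1 array, 2 in all, so no value below has an error between mice, no difference was tested and no p-value exists. In the text, "KO label" and "WT label" stand for these arrays. Values are log2 signals made by the authors with RMA, and each difference is the array labelled Jdp2 KO minus the array labelled Jdp2 WT.

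Splicing removes introns from nuclear transcripts in the spliceosome, a machine built anew on each intron from small nuclear ribonucleoproteins (snRNPs). U1 marks the 5′ splice site, U2AF and the SF3A and SF3B parts of U2 mark the branch point and the 3′ end of the intron, and the U4, U6 and U5 snRNPs then join and are rearranged with the help of Prp proteins. Each of U1, U2, U4 and U5 is wrapped by a ring of Sm proteins, and U6 by a ring of the related LSm proteins. SR proteins mostly promote and hnRNP proteins often oppose the use of an exon. In neutrophils, intron retention is known to increase as granulocytes mature, together with lower levels of several splicing factors.

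The labels were not checked by the targeted gene. Jdp2 read 12.38 on the array labelled Jdp2 KO and 11.997 on the array labelled Jdp2 WT with its stronger probe set, and 5.40 (KO label) against 5.24 (WT label) with the other. Jdp2 was therefore not lower under the knockout label, and where its probes lie relative to the deletion is not known here. The 10 neutrophil markers measured, Camp and Ltf among them, all read at least 12.24 on the array labelled Jdp2 KO and at least 12.50 on the array labelled Jdp2 WT, with a median difference of -0.06. Promyelocyte markers were higher under the knockout label in 6 of 6 cases by at least 2-fold, and their summed linear signal was 6382 on the array labelled Jdp2 KO against 1686 on the array labelled Jdp2 WT. Monocyte and macrophage markers were at least 2-fold higher in 10 of 13 cases (summed signal 8404 under the KO label, 5608 under the WT label), and platelet markers in 3 of 6 (4749 under the KO label, 2806 under the WT label). Among the platelet markers 2 were lower under the knockout label, Itga2b by -0.34 and Itgb3 by -0.20. In 5 of those 10 monocyte and macrophage markers and 2 of the 6 promyelocyte markers 1 value lay under its array's median. With weak values raised to the median, 6 of 13, 6 of 6 and, for platelet markers, 3 of 6 were at least 2-fold higher. Passing probe sets disagreed for Ctsc, a promyelocyte marker (1.05 and -0.61), and for Fcgr1, a monocyte and macrophage marker (1.24 and -0.47). The summed signals of B cell markers were 722 (KO label) and 710 (WT label), those of T and NK cell markers 1654 (KO label) and 1341 (WT label), and those of erythroid markers 261 (KO label) and 420 (WT label), with 3 of 8, 4 of 9 and 5 of 7 of these genes under the median of all probe sets on both arrays. Cell cycle genes had a median difference of 0.34, with 22 of 23 above 0 and summed signals of 30583 (KO label) and 24972 (WT label). Of the 11168 genes that reached the median of all probe sets on either array, 44.8% lay above 0. At least 2-fold higher were 3.06% of them. In bulk RNA, fewer cells of a type and less RNA per cell cannot be told apart. The part of these other cells and of cycling cells in the differences below was not tested.

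Transcripts of splicing factors were close to the same on both arrays. Of the 74 genes, 72 passed the level filter, which asks that the higher value be at or above the median of all probe sets on its array (5.67 under the knockout label and 5.65 under the wild-type label). None of the 72 was 2-fold higher or 2-fold lower, where 3.06% and 2.33% of the 11168 passing genes were. At a smaller size, 2 members were at least 1.5-fold higher, Snrpf and Lsm4, and none was 1.5-fold lower, beside 8.49% and 8.86% of all passing genes. Most of these genes have strong signals, and strong signals differed less between the arrays. Among the 6298 genes that reached the 75th percentile, 1.75% and 1.38% were 2-fold higher and lower, and 4.35% and 5.92% were 1.5-fold higher and lower. A difference of no more than 0.25 in either direction was found for 54 of the 72 members (75%), against 51.6% of all passing genes and 61.6% of those that reached the 75th percentile. The median difference of the 72 members was 0.04, beside -0.04 for all passing genes, and 38 members lay above 0 (44.8% of all passing genes did, and 41.2% of those that reached the 75th percentile). The median changed sign, to -0.01, when probe sets with names ending in _s_at, _x_at or _a_at were left out. The remaining 2 members, Srsf12 and Snrpn, did not pass. Srsf12, an SR protein, read 2.74 (KO label) and 2.87 (WT label), and Snrpn, an imprinted Sm gene best known from brain, read 4.81 (KO label) and 4.34 (WT label).

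**Figure D1:**
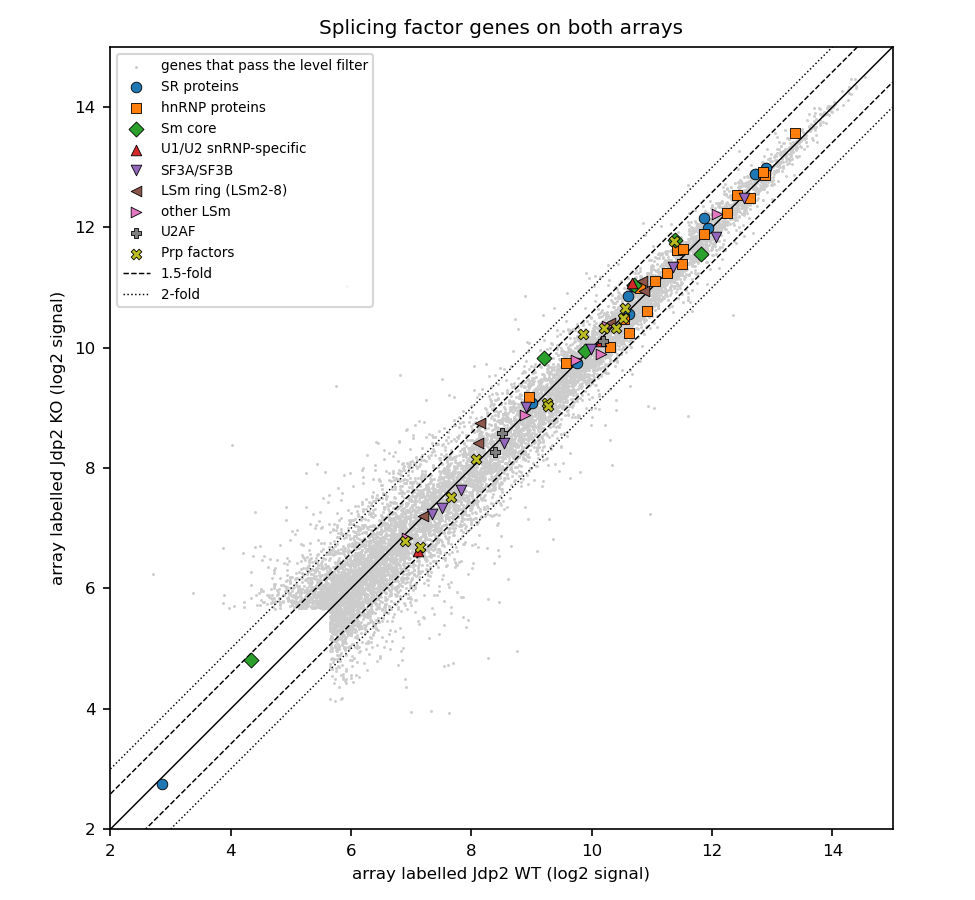
Log2 signal of each splicing factor gene on the array labelled Jdp2 KO (vertical axis) and the array labelled Jdp2 WT (horizontal axis). Symbols are the 74 genes by group, grey points the 11168 genes that passed the level filter, the solid line equality, and broken and dotted lines 1.5-fold and 2-fold. All 74 symbols lie inside the 2-fold lines, and Snrpf and Lsm4 lie just outside the upper 1.5-fold line.

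The families did not share one direction. The Sm core (median 0.33 over 5 passing genes) and the LSm2 to LSm8 ring (0.19 over 6) stood on the high side, and the SF3A and SF3B proteins (-0.11 over 9) on the low side. The median of all passing genes was -0.04. With the 75th percentile filter the SF3A and SF3B median was -0.02 over 6 genes, beside -0.05 for all genes. SR proteins had a median of 0.08 over 9 genes and hnRNP proteins of 0.03 over 19. Medians were -0.08 for U2AF (3 genes), -0.03 for the proteins specific to U1 or U2 (3 genes), 0.02 for the other LSm proteins (6 genes) and -0.04 for the Prp factors (12 genes). Under median centring, quantile normalisation and loess the Sm, LSm ring, other LSm, SR, hnRNP, SF3 and U2AF medians kept their sign. The median of the U1 and U2 proteins was above 0 after quantile normalisation and after loess, and that of the Prp factors after loess. Among single genes, 8 of the 72 changed sign under 1 or more of these 3 scalings, and all 8 differed by 0.03 or less.

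**Figure D2:**
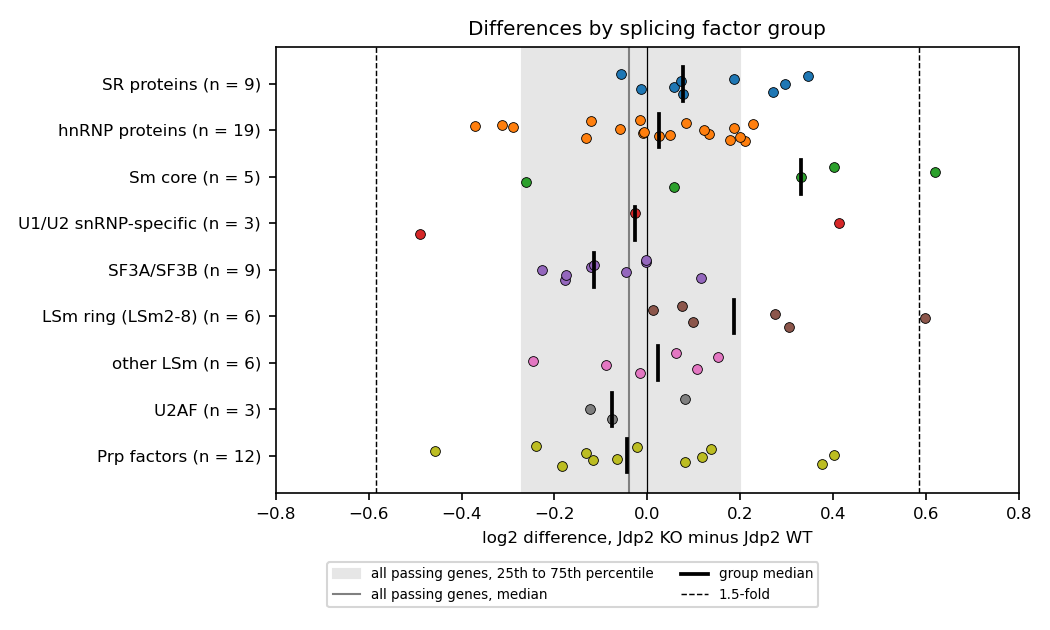
Log2 difference (array labelled Jdp2 KO minus array labelled Jdp2 WT) of the 72 passing genes by group. Points are genes, black bars group medians, the grey band the middle 50 percent of all passing genes and the grey line their median, and broken lines 1.5-fold. The Sm core and LSm ring medians (0.33 and 0.19) lie to the right of 0 and the SF3A/SF3B median (-0.11) to the left, and 2 points pass a broken line; the signs of the U1/U2 and Prp medians change under other scalings.

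Sm proteins form the ring around U1, U2, U4 and U5 RNA. The sequences before the transcription starts of the 3 passing Sm genes with the highest differences are printed below because those genes lead the group. They are 250 bases upstream of the RefSeq start, 5′ to 3′ on the gene's strand, in build GRCm38.p6. Snrpf lies at chr10:93589659-93589908 (minus strand), Snrpg at chr6:86371290-86371539 (plus strand) and Snrpe at chr1:133610281-133610530 (minus strand). Capitals mark TGACGTCA, the palindromic cyclic AMP response element to which Jdp2 is known to bind, and the CCAAT box on either strand. The AP-1 element TGACTCA was searched on both strands too and has no match in these 3 windows. No match of one motif overlaps another.
Snrpf: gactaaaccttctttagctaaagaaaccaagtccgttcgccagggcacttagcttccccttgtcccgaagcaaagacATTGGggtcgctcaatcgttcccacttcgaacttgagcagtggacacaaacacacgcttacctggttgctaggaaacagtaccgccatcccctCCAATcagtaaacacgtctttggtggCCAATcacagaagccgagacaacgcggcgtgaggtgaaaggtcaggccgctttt
Snrpg: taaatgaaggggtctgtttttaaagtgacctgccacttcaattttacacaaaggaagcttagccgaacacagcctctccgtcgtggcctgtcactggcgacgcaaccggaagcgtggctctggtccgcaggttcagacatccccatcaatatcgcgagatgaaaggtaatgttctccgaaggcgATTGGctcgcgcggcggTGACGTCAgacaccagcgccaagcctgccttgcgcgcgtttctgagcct
Snrpe: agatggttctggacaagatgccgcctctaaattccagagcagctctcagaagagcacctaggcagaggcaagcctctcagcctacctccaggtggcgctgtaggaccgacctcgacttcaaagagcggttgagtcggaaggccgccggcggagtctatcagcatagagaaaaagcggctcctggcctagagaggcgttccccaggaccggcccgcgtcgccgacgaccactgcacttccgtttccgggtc

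The Snrpg window holds TGACGTCA starting 49 bases before the start, and a CCAAT box on the other strand 66 bases before the start. Snrpf holds a CCAAT box 80 and 54 bases before its start and one on the other strand at 173, and Snrpe none of the motifs. Promoter windows were found for 64 of the 74 genes, 86 windows in all. TGACGTCA was in 2 of the 86, those of Snrpg and Lsm2, beside 1.55% of all 32851 windows. TGACTCA was in 2 of 86, those of Hnrnpa1 and Snrpc, beside 4.46% of all windows. The CCAAT box was in 39 of 86 (45.3%), beside 33.8% of all windows. A match describes the letters of the window only.

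Snrpf, which encodes SmF, read 9.83 on the array labelled Jdp2 KO and 9.21 on the array labelled Jdp2 WT, a difference of 0.62 or 1.54-fold, from a single probe set (1428672_at). Its difference lay between 0.60 and 0.69 under the alternatives. It was higher under the knockout label and was the largest difference of the 72. Snrpg, which encodes SmG, read 11.79 (KO label) against 11.39 (WT label), and both of its passing probe sets were higher, by 0.40 and 0.41. Snrpe, which encodes SmE, read 11.04 (KO label) against 10.71 (WT label), a difference of 0.33. SmE, SmF and SmG bind each other as a trimer before the ring closes, and all 3 transcripts read higher under the knockout label. Snrpb, which encodes SmB, read 9.95 (KO label) against 9.89 (WT label), with probe set differences of 0.03 and 0.06. Snrpd3, which encodes SmD3, ran the other way, at 11.56 on the array labelled Jdp2 KO and 11.82 on the array labelled Jdp2 WT, and its 3 passing probe sets lay between -0.38 and -0.26. The Sm transcripts therefore did not read higher as a whole ring. The only probe set of Snrpe and the stronger ones of Snrpb and Snrpg carry a maker's mark for shared probes (names ending in _s_at). Signal from other copies of these genes was not told apart there.

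The LSm2 to LSm8 ring holds the 3′ end of U6 RNA. All 6 measured ring genes lay above 0, where 44.8% of all passing genes did. Lsm7, at 7.21 (KO label) against 7.19 (WT label), did not lie above 0 after the arrays were centred on their medians. Lsm4 read 8.75 on the array labelled Jdp2 KO and 8.15 on the array labelled Jdp2 WT, a difference of 0.60 or 1.51-fold, again from a single probe set (1448622_at). This lies at the edge of the size rule, and median centring took it to 0.58, just below 1.5-fold. Lsm2 read 8.42 (KO label) against 8.11 (WT label), Lsm3 10.40 (KO label) against 10.31 (WT label) and Lsm8 10.94 (KO label) against 10.87 (WT label). These were higher under the knockout label by 0.31, 0.10 and 0.07. Lsm6 read 11.12 (KO label) against 10.84 (WT label), but its 4 passing probe sets ran from -0.31 to 0.72, the widest spread of any member. Lsm6 was at 0.72 when shared probe sets were left out and at 0.19 as the mean of all its probe sets, so its size was not settled.

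The other LSm proteins act outside the splicing ring. Lsm1, which replaces LSm8 in the cytoplasmic ring that promotes removal of the mRNA cap, read 8.88 (KO label) and 8.90 (WT label), and its probe sets lay at -0.46 and -0.02. Lsm10 and Lsm11, which replace SmD1 and SmD2 in the U7 snRNP of histone mRNA processing, differed by 0.11 and -0.09. Lsm14a, a protein of cytoplasmic processing bodies, read 12.23 (KO label) against 12.08 (WT label), and its 3 passing probe sets lay between 0.08 and 0.34. Its relative Lsm14b differed by 0.06. Lsm12 read 9.90 (KO label) against 10.15 (WT label), and both of its passing probe sets were lower under the knockout label.

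**Figure D3:**
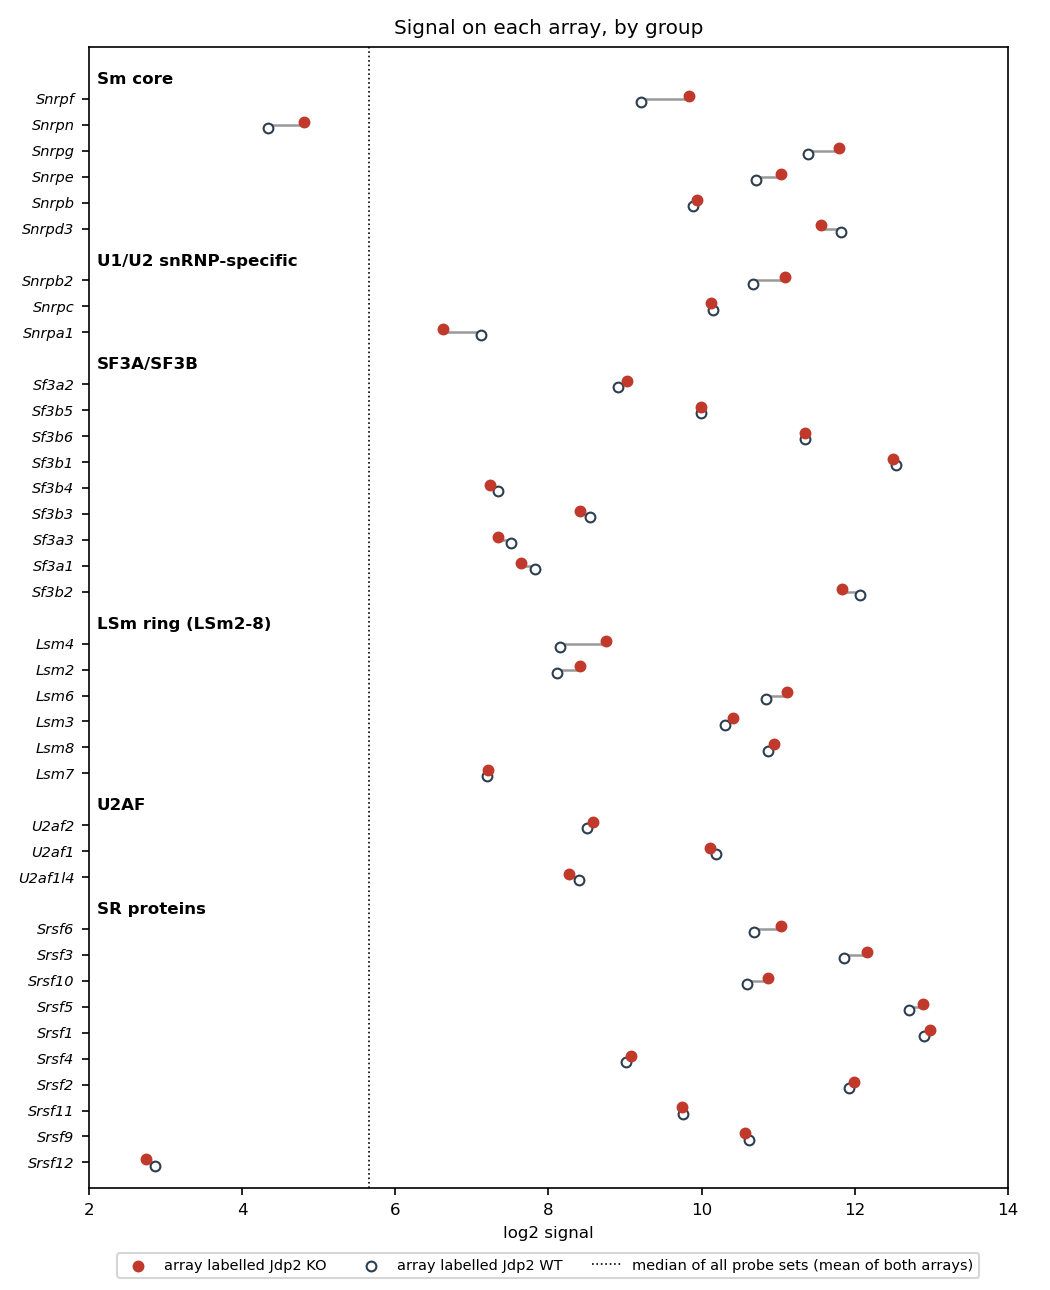
Log2 signal of each gene in 6 groups on the array labelled Jdp2 KO (filled) and the array labelled Jdp2 WT (open), joined by a line; the dotted line is the median of all probe sets, averaged over both arrays. Filled points lie to the right for 5 of 6 Sm genes, Snrpn below the level filter included, and for the LSm ring, and to the left for 8 of 9 SF3A and SF3B genes, with gaps that are small beside the span of the axis; the signs of Lsm7, Sf3b5, Sf3b6, Snrpc and Srsf11 change under other scalings.

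Among proteins specific to one snRNP, Snrpb2 and Snrpa1, whose products bind each other on U2 RNA, pointed in opposite directions. Snrpb2 read 11.08 on the array labelled Jdp2 KO and 10.67 on the array labelled Jdp2 WT, whereas Snrpa1 read 6.63 (KO label) and 7.12 (WT label). The difference was 0.41 for Snrpb2 and -0.49 for Snrpa1, the lowest of the 72. Neither size held across probe sets. Those of Snrpb2 ran from -0.07 to 0.41, and those of Snrpa1 from -0.49 to -0.01. With shared probe sets left out, names ending in _a_at included, Snrpb2 was at -0.07. That value came from its weakest probe set (6.60 under the KO label, 6.67 under the WT label). Snrpc, which encodes the U1 protein that contacts the 5′ splice site, read 10.12 (KO label) and 10.15 (WT label).

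SF3A and SF3B are the protein parts of U2 that clamp the branch point. Of their 9 genes, 8 lay below 0 on their strongest probe sets, and all 9 differed by no more than 0.25. Of all 11168 passing genes, 6155 lay below 0 and 51.6% differed by no more than 0.25. The latter share was 61.6% among genes that reached the 75th percentile, as 6 of these 9 did. Sf3b2 had the lowest difference, at 11.84 on the array labelled Jdp2 KO and 12.07 on the array labelled Jdp2 WT, and all 7 of its probe sets lay below 0, between -0.45 and -0.07. Sf3a3 (7.34 under the KO label, 7.51 under the WT label) and Sf3a1 (7.64 under the KO label, 7.82 under the WT label) differed by -0.18 each. Both probe sets of Sf3a3 were below 0, and those of Sf3a1 ran from -0.45 to 0.06. Sf3b1, which encodes the large subunit that contacts the branch point and is often mutated in myelodysplasia, read 12.49 (KO label) and 12.54 (WT label) and had probe sets on both sides of 0. Sf3b6, which lies at the branch point adenosine, read 11.35 on both arrays, and Sf3b5 differed by less than 0.01 too. Sf3b3 differed by -0.12, and its other probe set, below the level filter, was at 0.32. Sf3b4 differed by -0.11 with another passing probe set at 0.12. Sf3a2, the only gene of this group above 0, differed by 0.12 with another probe set at -0.26. The count below 0 depended on the processing. It left 3 of 9 genes above 0 after quantile normalisation or loess and 4 of 9 with the mean of all probe sets, in place of 1 of 9. Over all passing genes, 5420 of 11165 lay above 0 after quantile normalisation and 5503 of 11167 after loess. With the mean of all probe sets 3954 of 9589 did, beside 5007 of 11168 in the main setting. U2af2, which binds the polypyrimidine tract, read 8.58 (KO label) against 8.50 (WT label), and U2af1, which binds the AG at the intron end, read 10.11 (KO label) against 10.18 (WT label). U2af1l4, a relative of U2af1, read 8.27 (KO label) against 8.40 (WT label).

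SR proteins are serine- and arginine-rich exon activators. Of the 9 that passed, 7 lay above 0, where 44.8% of all passing genes did. Srsf6 read 11.03 on the array labelled Jdp2 KO and 10.69 on the array labelled Jdp2 WT, Srsf3 read 12.15 (KO label) against 11.86 (WT label), and Srsf10, a splicing repressor when dephosphorylated after heat shock, read 10.87 (KO label) against 10.60 (WT label). All 6 passing probe sets of Srsf3 were higher under the knockout label, by 0.15 to 0.52, and all 4 of Srsf6, by 0.06 to 0.35, while those of Srsf10 ran from -0.04 to 0.27. Srsf1, an SR protein of both constitutive and alternative splicing, read 12.98 (KO label) against 12.90 (WT label) and Srsf2 read 11.98 (KO label) against 11.93 (WT label). Both had probe sets on either side of 0, from -0.34 to 0.29 for Srsf1 and from -0.32 to 0.26 for Srsf2. Srsf5 read 12.90 (KO label) against 12.71 (WT label), from 1 probe set. Srsf4, Srsf9 and Srsf11 differed by 0.07, -0.06 and -0.01. Srsf11 changed sign under other scalings.

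The hnRNP genes were divided between both directions, with 10 of 19 above 0 and 16 of 19 within 0.25 of 0. Of all passing genes, 44.8% lay above 0 and 51.6% within 0.25 of 0. Among genes that reached the 75th percentile, as all 19 did, these shares were 41.2% and 61.6%. Hnrnpk, which binds C-rich RNA, read 13.57 on the array labelled Jdp2 KO and 13.38 on the array labelled Jdp2 WT, Hnrnpu, a nuclear scaffold protein, 12.93 (KO label) against 12.84 (WT label), and Hnrnpf, which binds G-runs, 12.87 (KO label) against 12.88 (WT label). Hnrnpa1, a classic exon silencer protein, read 9.75 (KO label) against 9.57 (WT label), and its 3 probe sets lay between 0.04 and 0.43. With the strongest probe sets of the deposited values, 3 genes were lower by more than 0.25: Hnrnpll (10.24 under the KO label, 10.61 under the WT label), Hnrnpm (10.61 under the KO label, 10.93 under the WT label) and Hnrnpl (10.01 under the KO label, 10.30 under the WT label). Hnrnpl and Hnrnpll are related proteins known for silencing variable exons of the leukocyte phosphatase gene Ptprc. The 2 passing probe sets of Hnrnpll were at -0.42 and -0.37, whereas Hnrnpl had another, below the level filter, at 0.25. On the same values the highest hnRNP difference was that of Hnrnpr, at 0.23, with its 3 passing probe sets between 0.22 and 0.32. It was 0.30 after quantile normalisation and 0.31 after loess, where Hnrnpl was at -0.23 both times. Hnrnpa0 (0.21), Hnrnpab (0.20), Hnrnpdl (0.13) and Hnrnph2 (0.12) lay above 0, and Hnrnpa2b1 (-0.13), Hnrnpul1 (-0.12) and Hnrnph3 (-0.06) below it. Hnrnpc, which binds uridine tracts, was at 0.03, Hnrnpul2 at -0.02 and Hnrnph1 at -0.01. Passing probe sets of Hnrnpa2b1, Hnrnpab, Hnrnpc, Hnrnpdl, Hnrnpf, Hnrnph1 and Hnrnpu lay on both sides of 0. Hnrnpd, which binds AU-rich mRNA, differed by 0.05 with its strongest probe set and by -0.38 as the mean of all its probe sets.

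Prp factors drive assembly and catalysis. Prpf19, a ubiquitin ligase at the core of the complex that activates the spliceosome, read 10.23 on the array labelled Jdp2 KO and 9.86 on the array labelled Jdp2 WT. All 4 of its passing probe sets were higher under the knockout label, by 0.33 to 0.38. Prpf39, an alternative splicing factor of U1, read 11.77 (KO label) against 11.37 (WT label), but its probe sets ran from -0.26 to 0.40. Prpf40b, also tied to U1, read 6.69 (KO label) against 7.15 (WT label), a difference of -0.46 from 1 probe set. Prpf38b read 10.67 (KO label) against 10.55 (WT label) and had probe sets on both sides of 0. Prpf8, the scaffold of the catalytic centre, read 9.03 (KO label) against 9.27 (WT label). Among factors of the U4, U6 and U5 particle, Prpf3 was at 0.08 and Prpf18 at -0.18. Prpf4 was at -0.13 with another probe set at 0.13, and Prpf31 at -0.12 with another at -0.40. Prpf6, which bridges this particle, read 10.50 (KO label) against 10.52 (WT label), and its sign changed under other scalings. The kinase gene Prpf4b was at 0.14 and had probe sets on both sides of 0. Prpf38a was at -0.06 with its strongest probe set (10.34 under the KO label, 10.40 under the WT label) and at 0.90 with another, weak one (6.68 under the KO label, 5.78 under the WT label).

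Agreement between probe sets of a gene was the only measure of technical spread. Of the 197 probe sets 181 passed, and 45 genes had 2 or more that did. In 20 of these genes all passing probe sets lay on the same side of 0, and in 25 they lay on both sides. The pooled SD of the difference over probe sets of a gene was 0.18, and the median span was 0.29. Differences larger than that SD were found for 26 of the 72 genes, 17 of them higher and 9 lower under the knockout label. Of all 11168 passing genes, 26.4% were higher and 33.4% lower by more than that. This SD comes from probe sets on shared RNA and holds nothing of the spread between mice. Of the 181 passing probe sets, 4 were at least 1.5-fold higher and none was 1.5-fold lower, against 8.23% higher and 9.76% lower of the 19604 passing probe sets with 1 gene symbol. The 4 were those of Snrpf and Lsm4, 1 of Lsm6 and 1 of Prpf38a.

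**Figure D4:**
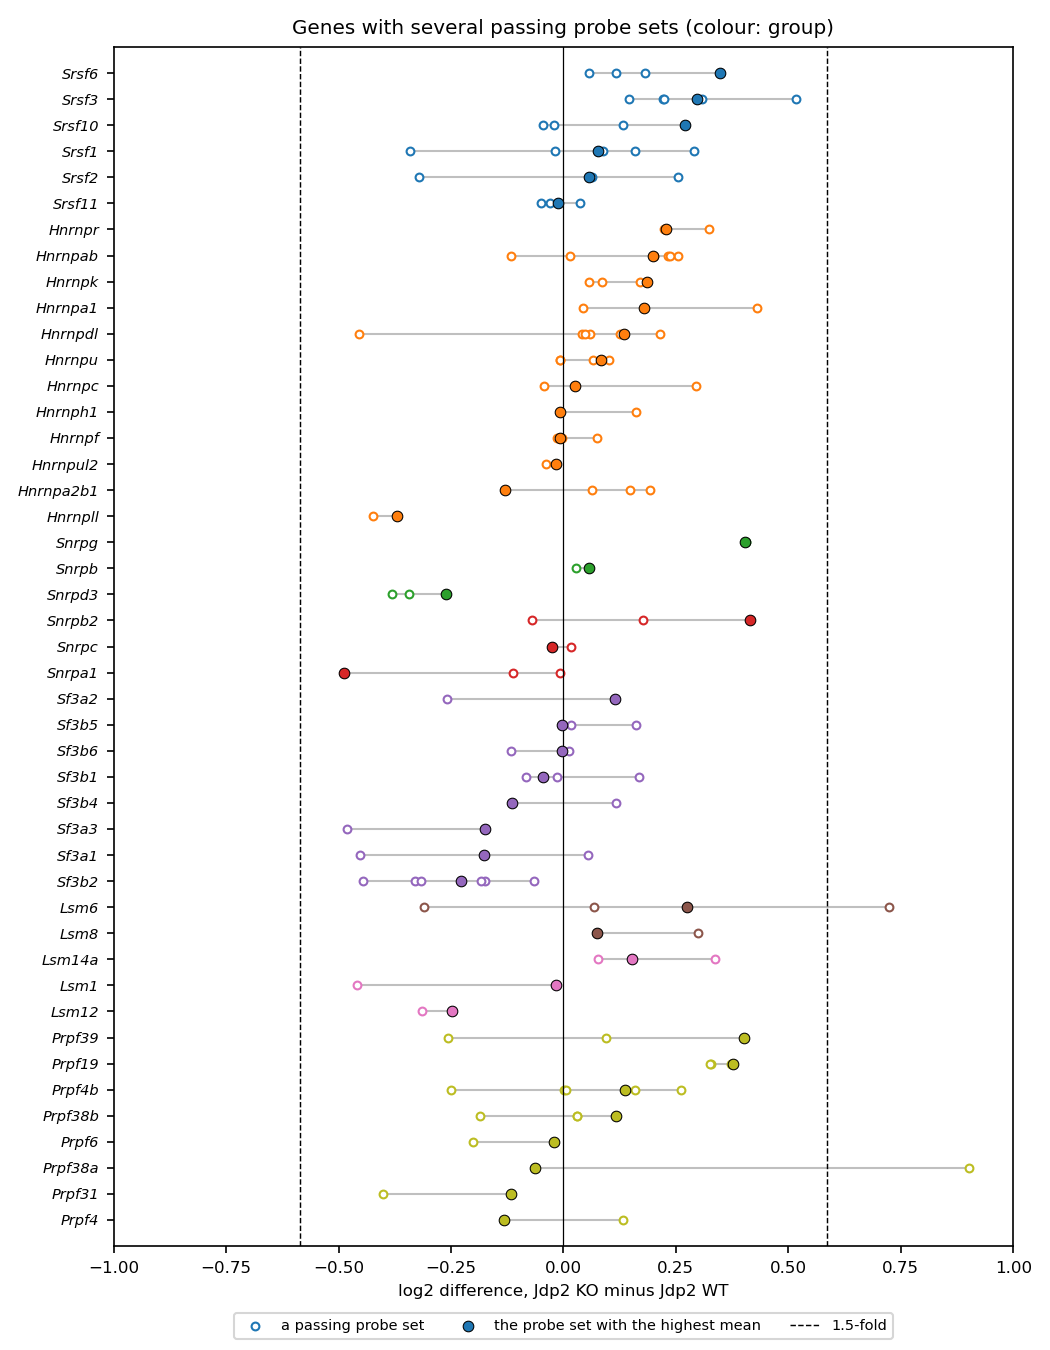
Log2 difference (array labelled Jdp2 KO minus array labelled Jdp2 WT) of every passing probe set of the 45 genes with 2 or more. Open points are probe sets, the filled point is the one with the highest mean, colours are the groups, and broken lines mark 1.5-fold. Probe sets of Prpf19, Srsf3, Snrpg and Sf3b2 stay on one side of 0, and those of Lsm6 and Prpf38a spread widest.

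Further genes of the splicing machinery were followed in 5 lists. Of 47 other spliceosome genes, 18 lay above 0 (median -0.06), 2 were at least 2-fold higher and 1 at least 2-fold lower. Of all passing genes, 44.8% lay above 0, 3.06% were at least 2-fold higher and 2.33% at least 2-fold lower. Ddx23, the helicase that lets U6 replace U1, read 6.19 on the array labelled Jdp2 KO and 5.02 on the array labelled Jdp2 WT. Cwc27 read 5.47 (KO label) and 6.52 (WT label). Both genes had a value under its array's median and 1 passing probe set. Snrnp40, of the U5 particle, read 9.35 (KO label) against 8.32 (WT label), a difference of 1.02, while its other passing probe set was at 0.08. Dhx8, the helicase that releases spliced mRNA, read 7.41 (KO label) against 7.94 (WT label). The 34 splicing regulators had a median of 0.04, or -0.06 with the mean of all probe sets, and none reached 1.5-fold on its strongest probe set. Of all passing genes, 8.49% were at least 1.5-fold higher and 8.86% lower. Among genes that reached the 75th percentile, as 33 of the 34 regulators did, these shares were 4.35% and 5.92%. Their largest differences were those of Mbnl3 (-0.52), Taf15 (0.49), Rbfox2 (0.30) and Tra2b (0.28). Rbfox2 read 5.97 (KO label) and 5.68 (WT label), close to the array medians, from 1 passing probe set. The passing probe sets of Tra2b ran from 0.10 to 0.96, and those of Mbnl3 from -0.93 to -0.52. A passing probe set of Tia1 (-0.86), Qk (-0.80), Khdrbs1 (-0.65) and Mbnl2 (-0.64) was over 1.5-fold lower, and one of Elavl1 (0.61) higher. Of 8 kinases that phosphorylate SR proteins or the spliceosome, Prpf4b not counted, 6 were above 0 (median 0.09), and Srpk1 read 10.85 (KO label) against 10.67 (WT label). Exon junction genes had a median of -0.02 over 6 genes, above 0 after loess, with Acin1 at -0.51, Pnn and Rnps1 at 0.26 each and Rbm8a at -0.06. The passing probe sets of Pnn ran from -0.58 to 0.26. Genes that build snRNPs had a median of -0.01 over 8 genes, above 0 after quantile normalisation or loess. Gemin5, which recognises the RNA part, read 6.14 (KO label) against 6.83 (WT label), and its other passing probe set was at -2.03. Clns1a, the chaperone that holds Sm proteins before assembly, read 8.68 (KO label) against 9.12 (WT label) with probe sets from -0.73 to 0.15, Ddx20 read 7.45 (KO label) against 7.01 (WT label) and Gemin2 read 5.97 (KO label) against 5.77 (WT label).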

How the data were processed

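Total RNA of sorted neutrophils was biotin-labelled and hybridised to Affymetrix arrays, per the labels' protocols. The authors deposited log2 summaries of probe sets, and the submitters' processing notes name RMA without version or settings. Ranked values differed by no more than 0.117 between arrays, so both had nearly the same distribution as deposited. Of 45037 probe sets that are not controls, 34945 had 1 symbol, 932 had several and 9160 were unlisted; 34741 symbols were matched by Entrez identifier to a RefSeq gene table of GRCm38.p6, from which promoter windows were also taken. Probe sets with several symbols were not used, 19 of which list a splicing factor.

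The probe set with the highest mean stood for a gene, which passed where either value reached its array's median. The files hold no detection calls. With 1 array per label there is no test, and sizes of 2-fold and 1.5-fold (0.58 on the log2 scale) were counted. Gene groups, pathway lists and markers were chosen with earlier results of these data known. Values are given for members at 1.5-fold or more, for the 3 strongest per group, for those whose probe sets span over 1 log2 unit, for up to 4 genes per pathway list, and for other members by their role. A signal level of one probe set was not ranked against another's as a transcript amount. The counting was tested on simulated data only with shifts far larger than any member difference here. That test therefore says nothing about calls near 1.5-fold. Of the alternatives, 9 were run: 3 level filters, 3 scalings (loess span 0.3), the mean of all probe sets, no shared probe sets (names ending in _s_at, _x_at or _a_at), and weak values raised to the median. Names ending in _a_at may mark probes shared only by transcripts of the same gene, so the shared filter also dropped probe sets of a single gene. Computation used Python 3.11.15, pandas 2.3.3, numpy 2.4.6 and statsmodels 0.14.6.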

Additional observations from a re-analysis of the deposited data

How the results depend on the processing

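Counts of 0 members at 2-fold in either direction and of 0 members 1.5-fold lower held under all 9 alternatives. The count at least 1.5-fold higher stayed at 2 under 7 of them, was 1 (Snrpf) with the arrays centred on their medians, which took Lsm4 to 0.58, and was 3 without shared probe sets, which added Lsm6 and left 63 members to count. The median difference of the members, 0.04, was 0.072 with the 75th percentile filter, 0.065 after loess and -0.0079 without shared probe sets. The group medians ranged over the 9 alternatives from 0.31 to 0.41 for the Sm core, 0.10 to 0.27 for the LSm ring, 0.06 to 0.15 for SR proteins, -0.13 to -0.02 for SF3A and SF3B, -0.01 to 0.05 for hnRNP and -0.09 to 0.08 for the Prp factors. In all, 23 of the 72 members changed sign under 1 or more alternatives, Snrpb2 with the largest difference among them. With 1 array per label no array could be left out. No paired analysis was possible because each label had 1 array. Weak signal over background, for which RMA gives no detection call, limits Snrpn, Srsf12 and probe sets near the array median.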
